A study of Mus musculus with 32 samples.

Results

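Primordial germ cells (PGCs) of the mouse embryo at embryonic day 9.5 (E9.5) were compared with the epiblast at embryonic day 5.5 (E5.5), the tissue from which they descend. The comparison used the 2 arrays labelled as E9.5 PGCs and the 2 arrays labelled as E5.5 epiblast, 4 of the 32 arrays of the series, and was restricted to autosomal genes because the sex of the embryos was unknown. Of 18193 annotated genes on the array, 17404 were autosomal, and 14878 of these were bright enough in at least 1 of the series' 16 groups to be tested. The PGCs came from C57BL/6 embryos that carried a stella-EGFP reporter, which marks expression of Dppa3 (stella). The epiblast came from C57BL/6 embryos for which no reporter was named. A step in culture served as a parallel: cytokine-induced PGC-like cells (Ck-PGCLCs) at day 6 and epiblast-like cells (EpiLCs) at 48 h, 2 arrays each, made from male C57BL/6 embryonic stem cells with Blimp1-mVenus and stella-ECFP reporters. All of these arrays were taken from an earlier series and reanalysed. The series measured RNA of cells induced by transcription factors or cytokines to become PGC-like, with cDNA of about 20000 cells amplified by global PCR and read on 1-colour Affymetrix arrays. It calls the 2 arrays of a group biological duplicates. No label names separate embryos, litters or pools, or a sort of the embryonic PGCs. The p-values therefore cover just the spread seen among replicate arrays, some of it perhaps technical. This spread was estimated over all 32 arrays of the 16 groups, most of them cultured cells, and not from the embryo arrays alone. Cell type and embryonic age changed together between the groups, and their parts in a difference cannot be told apart.

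The epiblast of the early postimplantation embryo is a pluripotent epithelium that gives rise to all tissues of the body. A few of its cells respond to BMP4 from the neighbouring extraembryonic tissue, switch on Prdm1 (Blimp1), Prdm14 and Tfap2c, and become PGCs, which shut down the somatic programme, regain genes of naive pluripotency and remove much of their DNA methylation. By E9.5 PGCs migrate through the hindgut, and genes of gametogenesis mostly await arrival in the gonad.

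Levels are normalized log2 values of 1 probe set per gene, given per array as array 1 and array 2, and a log2 change is the PGC mean minus the epiblast mean (n = 2 arrays each) with the standard error (SE) and the Benjamini-Hochberg adjusted p of limma. Genes are called higher or lower where the adjusted p was under 0.05 and the groups differed 2-fold or more. Levels of different probe sets cannot be set against each other. A level under 4.05, the 40th percentile of all values, was treated as dim, and folds are imprecise where 1 group was dim. The number of arrays limits the precision.

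The replicate arrays correlated at r = 0.9712 for PGCs and 0.9764 for the epiblast, while PGC arrays correlated with epiblast arrays at 0.9059 to 0.9186. The difference of the Gapdh 5′ and 3′ probe sets, which is low where cDNA is biased to the 3′ end, was -1.5 and -0.19 in PGCs, against -0.72 and -0.07 in the epiblast. It was therefore lower in array 1 of each group. The labels fitted their defining genes for the most part. Of 8 germ cell markers, 7 rose in PGCs (Dppa3, Prdm1, Prdm14, Tfap2c, Kit, Dnd1 and Alpl), while Dazl was lower. Of 6 epiblast markers, 4 fell in PGCs (Fgf5, Otx2, Pou3f1 and Dnmt3b), Sox2 rose and Pou5f1 did not pass the test. PGC array 1 stood apart from PGC array 2 in somatic genes, but not in these alone. Of 21 tested genes of the primed epiblast, 16 were also higher in PGC array 1 than in array 2. Over all 14878 genes tested, 7754 were. Among the genes higher in PGCs, array 1 exceeded array 2 by at least 2-fold in 134 genes and array 2 exceeded array 1 in 14. Epiblast array 1 stood apart from array 2 in visceral endoderm genes. Among the genes lower in PGCs, epiblast array 1 exceeded array 2 by at least 2-fold in 42 genes and array 2 exceeded array 1 in 4. Counts of changed genes in a list are also given without an array where leaving it out moved them by more than 1.5 times, and so are the genes whose call was then lost. Of 89 changed genes of the lists and named genes with at least 2 probe sets above the dim level, 75 had all such probe sets changing in 1 direction and 14 had one going the other way.

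Of the 14878 genes, 1321 were higher in PGCs (8.88%) and 995 were lower (6.69%), 15.6% in all, with a median log2 change of 0.0005 over all genes tested. Over the 671 tested genes of all the lists used below, 19.1% were higher and 11.3% lower. The lists were chosen with earlier results of these data known, so a list share above that of all genes is not a test. List counts printed without a share are to be read against the same 8.88% and 6.69%. The rises had a median fold of 3.13 and the falls one of 2.96. A rise of at least 8-fold was found for 200 genes and a fall of that size for 104. The values of the 2 groups did not overlap in 1319 of the genes that rose and 994 of those that fell. The call already asks for a large difference against the spread, so this separation is no further support. Its share over all genes tested was not counted. Without PGC array 1, 1207 genes were higher and 1178 lower, and without epiblast array 1, 1302 were higher and 875 lower.

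The largest rises belonged to embryonic globins and to regulators of the germ line. The embryonic β-like globin gene Hbb-y stood at 12.50 and 11.34 in PGCs, against 0.94 and 2.79 in the epiblast (log2 change 10.05, SE 0.81, adjusted p = 1.4e-08). The embryonic α-like globin gene Hba-x stood at 12.56 and 11.44 in PGCs, against 4.94 and 4.98 in the epiblast (log2 change 7.05, SE 0.26). Prdm14, the PR domain factor that restores naive pluripotency genes in PGCs, followed at 10.60 and 10.75 in PGCs, against 2.20 and 3.17 in the epiblast (log2 change 7.99, SE 0.25, adjusted p = 8.87e-14). These 3 genes were far above every epiblast level in both PGC arrays, and both globins were lower in PGC array 2 than in array 1. The next rises were Lrrc34 (log2 change 6.75), Ap3b2, which codes for a subunit of the AP-3 vesicle adaptor (6.49), Prdm1 (6.39), the naive state factor Klf2 (6.16), Npnt, which codes for the matrix protein nephronectin (6.06), the integrin β3 gene Itgb3 (5.97), the tyrosine phosphatase gene Ptpre (5.81), the choline dehydrogenase gene Chdh (5.78) and Tmem53 (5.63). Chdh stood at 9.38 and 9.12 in PGCs, against 3.46 and 3.47 in the epiblast, and Ap3b2 at 10.76 and 10.90 in PGCs, against 4.04 and 4.64 in the epiblast.

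The largest falls were led by transcription factors of the epiblast. Otx2, the homeobox factor of the primed epiblast and later of the forebrain, stood at 2.53 and 1.72 in PGCs, against 10.18 and 10.69 in the epiblast (log2 change -8.31, SE 0.39, adjusted p = 1.07e-11). Eomes, a T-box factor of the epiblast and the primitive streak, stood at 3.35 and 3.63 in PGCs, against 10.13 and 10.64 in the epiblast (log2 change -6.89, SE 0.34, adjusted p = 2.06e-11). Eomes is also among the extraembryonic ectoderm markers given below, and the part of such cells in its fall was not tested. Pmaip1, which codes for the pro-apoptotic protein Noxa, stood at 5.56 and 3.64 in PGCs, against 11.56 and 11.19 in the epiblast (log2 change -6.77, SE 0.37, adjusted p = 7.98e-11). Otx2 and Eomes were dim in both PGC arrays, and Pmaip1 in PGC array 2. The others were Dnmt3b (log2 change -6.55), the immunoproteasome subunit gene Psmb8 (-6.46), the POU factor Pou3f1 (-6.41), Slc35d3 (-5.95), Fgf4 (-5.94), the carbonic anhydrase gene Car4 (-5.93), the carbonyl reductase gene Cbr3 (-5.85), Dnmt3l (-5.85) and Foxd3 (-5.61). Psmb8 stood at 1.44 and 1.80 in PGCs, against 7.90 and 8.24 in the epiblast.

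Most PGC specification genes rose. Of 17 tested genes of specification and early germ cells, 13 were higher in PGCs and 1 was lower, and the median log2 change was 3.70, against 0.0005 over all genes. The 13 rises held without each of the 4 arrays in turn. Prdm1, the repressor that starts the germ line, stood at 10.21 and 10.75 in PGCs, against 4.65 and 3.51 in the epiblast (log2 change 6.39, SE 0.33, adjusted p = 3.3e-11). Tfap2c, the AP-2γ factor that acts with Prdm1 and Prdm14, stood at 11.87 and 12.20 in PGCs, against 7.57 and 7.84 in the epiblast (log2 change 4.34, SE 0.29). All 3 specification factors thus separated the groups without overlap. Their 2 PGC values differed by less than 1 log2 unit. Dppa3, which codes for the maternal and germ cell protein stella, stood at 13.02 and 13.22 in PGCs, against 8.07 and 7.74 in the epiblast (log2 change 5.22, SE 0.25, adjusted p = 1.48e-11). It was bright in the epiblast too, and the reporter of the PGC embryos is built on this gene. Tcl1, a co-activator of the AKT kinase, stood at 11.03 and 10.59 in PGCs, against 5.90 and 5.53 in the epiblast (log2 change 5.09, SE 0.23).

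Dnd1, an RNA-binding protein needed for PGC survival, stood at 11.41 and 11.24 in PGCs, against 7.09 and 7.47 in the epiblast (log2 change 4.05, SE 0.28, adjusted p = 1.65e-09). Alpl, tissue non-specific alkaline phosphatase and the classical stain of PGCs, stood at 10.85 and 11.04 in PGCs, against 7.19 and 7.30 in the epiblast (log2 change 3.70, SE 0.33). The fragilis family member Ifitm1 stood at 12.98 and 12.99 in PGCs, against 9.98 and 8.96 in the epiblast. Ifitm3 stood at 13.31 and 13.32, against 10.58 and 9.73, with log2 changes of 3.52 and 3.16. Cbfa2t2, the corepressor that binds Prdm14, stood at 9.68 and 10.20 in PGCs, against 8.60 and 8.71 in the epiblast (log2 change 1.29, SE 0.19), and its call was lost where all probe sets were averaged (log2 change 0.95, adjusted p = 0.00257). Not every gene of the list moved this way. Sall4, a zinc finger factor shared by pluripotent and germ cells, stood at 11.63 and 12.34 in PGCs, against 11.51 and 11.70 in the epiblast (log2 change 0.38, SE 0.20, adjusted p = 0.201). Prmt5, the arginine methyltransferase partner of Prdm1, stood at 10.17 and 10.83 in PGCs, against 11.06 and 11.25 in the epiblast (log2 change -0.65, SE 0.23, adjusted p = 0.0398), under the 2-fold limit. Lin28a, which blocks let-7 microRNAs, stood at 9.96 and 9.88 in PGCs, against 10.71 and 10.57 in the epiblast (log2 change -0.72, SE 0.43, adjusted p = 0.253). Elovl4, a fatty acid elongase gene, was the list's single fall (log2 change -1.81, SE 0.28).

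**Figure D1:**
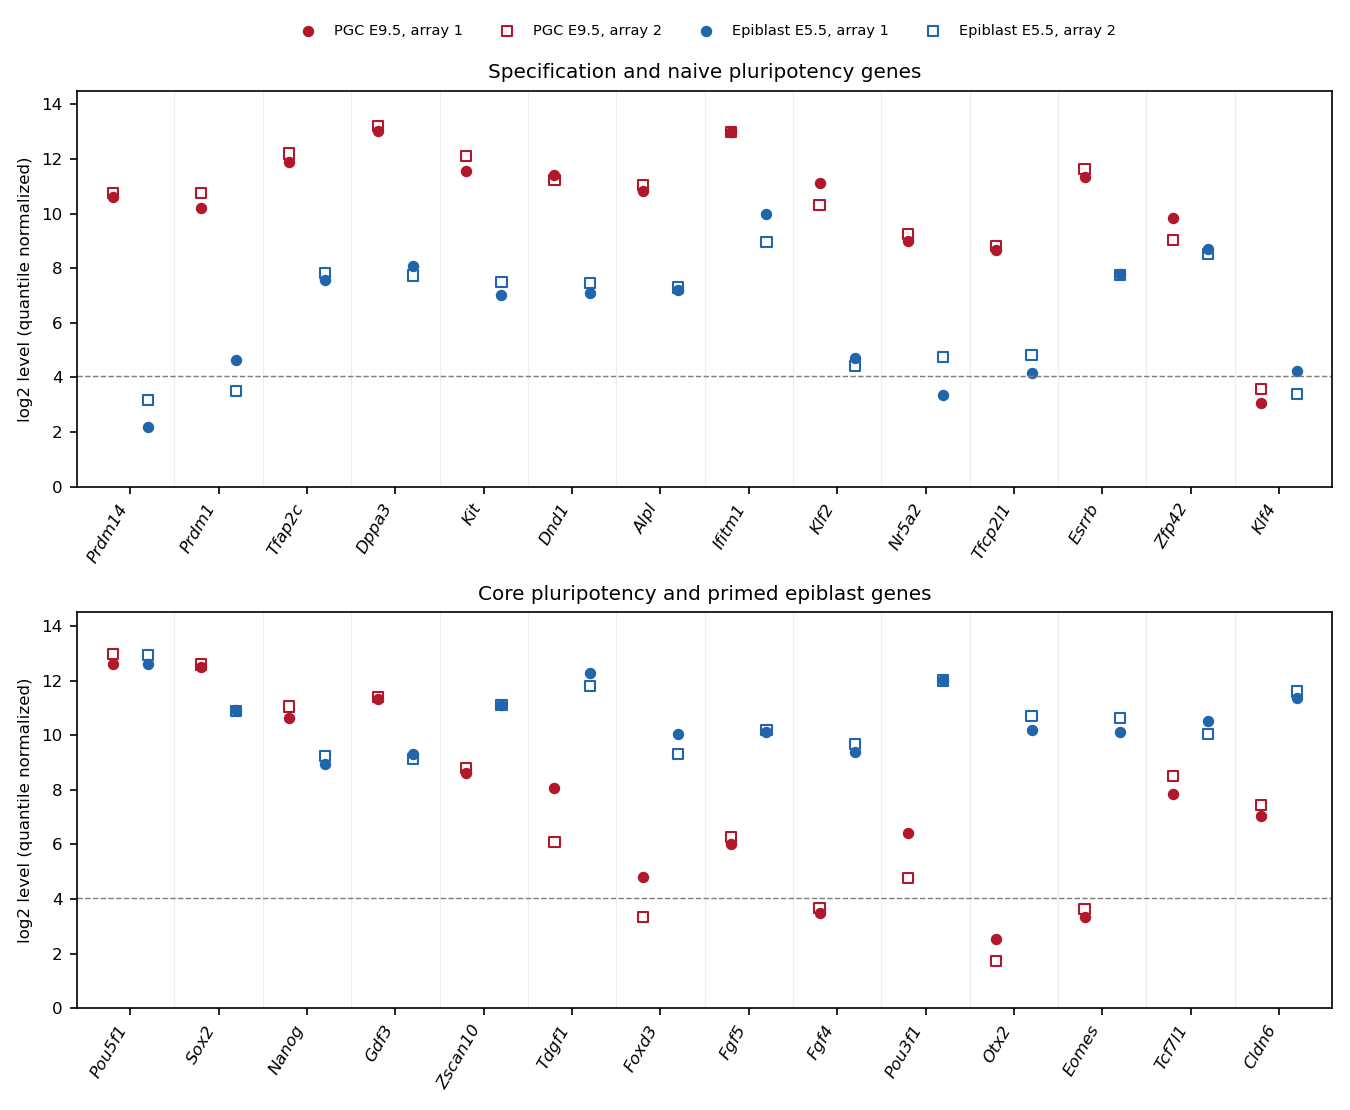
Normalized log2 level of 28 genes on each array, with genes along the horizontal axis and PGC E9.5 (red) left of epiblast E5.5 (blue) for each gene; filled circles are array 1, open squares array 2, and the dashed line is the dim level of 4.05. Specification genes and most naive genes lay higher in both PGC arrays, whereas Zscan10, Tdgf1, Foxd3 and the genes to their right lay lower in both, and Pou5f1 overlapped.

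Later germ cell genes, which act in gametogenesis and in the piRNA pathway that silences transposons, were divided. Of 26 tested genes, 5 rose and 4 fell, with a median log2 change of 0.057. That makes 19.2% and 15.4%, against 8.88% and 6.69% over all genes and 19.1% and 11.3% over all listed genes. Where all probe sets were averaged, 2 fell. The promoters of 4 of the genes that rose are printed here with those of 3 that fell, because the groups went opposite ways. The falls were chosen after their values were seen. Each stretch runs 5′ to 3′ on the gene's strand from 250 bases before to 50 after the RefSeq start (build GRCm38.p6), and capitals mark the letters CACGTG, the E-box that MAX heterodimers bind. The promoters lay at chr1:156303299-156303598 (- strand) for Tdrd5, chr3:82876434-82876733 (- strand) for Rbm46, chr3:94412994-94413293 (+ strand) for Tdrkh, chr9:35558421-35558720 (- strand) for Ddx25, chr17:50293571-50293870 (- strand) for Dazl, chr15:103430378-103430677 (- strand) for Gtsf1 and chr1:166238695-166238994 (- strand) for Mael.
Tdrd5: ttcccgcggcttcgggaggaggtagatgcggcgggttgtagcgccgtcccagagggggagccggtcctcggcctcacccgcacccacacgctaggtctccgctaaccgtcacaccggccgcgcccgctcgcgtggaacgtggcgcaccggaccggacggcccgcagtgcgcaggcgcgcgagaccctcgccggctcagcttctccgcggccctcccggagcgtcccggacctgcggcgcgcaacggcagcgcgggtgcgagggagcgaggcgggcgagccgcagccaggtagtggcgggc
Rbm46: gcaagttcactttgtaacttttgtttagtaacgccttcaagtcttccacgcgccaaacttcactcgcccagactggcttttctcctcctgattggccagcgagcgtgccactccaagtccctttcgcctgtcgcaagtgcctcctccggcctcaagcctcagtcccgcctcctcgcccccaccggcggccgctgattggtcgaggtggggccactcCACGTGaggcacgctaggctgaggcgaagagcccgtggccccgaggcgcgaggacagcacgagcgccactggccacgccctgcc
Tdrkh: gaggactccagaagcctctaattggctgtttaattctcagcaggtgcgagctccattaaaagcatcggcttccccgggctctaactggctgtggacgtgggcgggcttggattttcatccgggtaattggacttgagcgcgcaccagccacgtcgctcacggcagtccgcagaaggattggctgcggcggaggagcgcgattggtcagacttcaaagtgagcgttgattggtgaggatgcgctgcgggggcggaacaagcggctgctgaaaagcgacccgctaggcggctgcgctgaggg
Ddx25: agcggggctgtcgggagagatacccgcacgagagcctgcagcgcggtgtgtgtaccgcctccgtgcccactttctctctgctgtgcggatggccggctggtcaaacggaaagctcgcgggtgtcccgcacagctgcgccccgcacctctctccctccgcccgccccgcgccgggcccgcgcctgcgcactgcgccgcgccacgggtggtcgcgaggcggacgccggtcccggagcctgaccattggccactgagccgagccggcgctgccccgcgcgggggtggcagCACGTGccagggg
Dazl: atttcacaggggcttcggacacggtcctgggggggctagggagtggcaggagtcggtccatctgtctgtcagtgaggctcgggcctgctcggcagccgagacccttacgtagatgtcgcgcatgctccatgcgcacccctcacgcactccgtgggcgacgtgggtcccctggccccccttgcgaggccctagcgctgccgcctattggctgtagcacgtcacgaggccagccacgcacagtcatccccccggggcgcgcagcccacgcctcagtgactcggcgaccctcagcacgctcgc
Gtsf1: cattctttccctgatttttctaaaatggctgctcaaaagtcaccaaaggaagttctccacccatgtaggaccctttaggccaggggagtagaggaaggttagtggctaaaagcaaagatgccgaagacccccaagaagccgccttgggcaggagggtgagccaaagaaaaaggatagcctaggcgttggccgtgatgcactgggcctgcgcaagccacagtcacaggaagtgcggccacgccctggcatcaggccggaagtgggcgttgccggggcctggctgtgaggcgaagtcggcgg
Mael: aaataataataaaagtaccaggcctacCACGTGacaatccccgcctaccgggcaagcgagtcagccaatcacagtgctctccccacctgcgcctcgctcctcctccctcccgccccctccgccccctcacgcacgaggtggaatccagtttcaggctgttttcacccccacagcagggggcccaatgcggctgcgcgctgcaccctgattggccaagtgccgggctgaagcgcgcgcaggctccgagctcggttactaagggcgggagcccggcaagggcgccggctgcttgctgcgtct
The letters CACGTG, which read the same on both strands, stood once in Rbm46 (first base 34 bases before the start), once in Ddx25 (37 bases after it) and once in Mael (223 bases before it), and not in the other 4 windows. They were thus present among the genes that rose and among those that fell. Over the RefSeq promoters of 27025 genes, 7.2% held CACGTG, and of the 23 tested later germ cell genes with a promoter in the table, 11 did. CpG dinucleotides numbered 48 in Tdrd5, 25 in Rbm46, 25 in Tdrkh, 41 in Ddx25, 28 in Dazl, 13 in Gtsf1 and 24 in Mael, against a median of 7 per promoter over all genes. Each of the 7 windows was richer in CpG than that median, whichever way the gene moved. A match of letters is a description, not a binding site.

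Among the genes that rose, Tdrd5, a tudor domain gene of the piRNA pathway, stood at 8.26 and 9.45 in PGCs, against 5.30 and 5.12 in the epiblast (log2 change 3.64, SE 0.39, adjusted p = 7.4e-07). Rbm46, a germ cell RNA-binding protein, stood at 7.93 and 7.05 in PGCs, against 4.52 and 4.17 in the epiblast (log2 change 3.14, SE 0.38). Tdrkh, which binds PIWI proteins on mitochondria, stood at 7.53 and 7.81 in PGCs, against 4.92 and 5.11 in the epiblast (log2 change 2.65, SE 0.30). These 3 genes were well apart in the 2 groups. Piwil2 (Mili), a PIWI protein of fetal germ cells, rose too (log2 change 1.34, SE 0.33, adjusted p = 0.00431). Ddx25, a testis RNA helicase, stood at 7.69 and 7.92 in PGCs, against 6.67 and 6.78 in the epiblast (log2 change 1.09, SE 0.19), and its call was lost without PGC array 2 (log2 change 0.97, adjusted p = 0.00428).

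Ddx4 (Vasa), a helicase and a marker of later germ cells, stood at 8.98 and 8.72 in PGCs, against 8.97 and 8.64 in the epiblast (log2 change 0.048, SE 0.21, adjusted p = 0.912), so that its levels overlapped. Dazl, an RNA-binding protein that licenses germ cells for gametogenesis, stood at 5.91 and 3.75 in PGCs, against 7.35 and 6.74 in the epiblast (log2 change -2.22, SE 0.55, adjusted p = 0.00486). It was lower in PGC array 2 than in array 1, and its call was lost without PGC array 2 (log2 change -1.14, adjusted p = 0.152) and without epiblast array 1 (log2 change -1.91, adjusted p = 0.056). Mael, a piRNA pathway protein, stood at 6.56 and 6.21 in PGCs, against 8.12 and 8.59 in the epiblast (log2 change -1.97, SE 0.34, adjusted p = 0.000161). Gtsf1, a zinc finger partner of PIWI proteins, stood at 4.68 and 4.12 in PGCs, against 6.79 and 6.01 in the epiblast (log2 change -2.0, SE 0.35), and its call was lost where all probe sets were averaged (log2 change -1.05, adjusted p = 0.208).

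Meiosis genes were divided too. Of 26 tested, 4 rose and 5 fell, with a median log2 change of -0.07. These were 15.4% and 19.2%, against 8.88% and 6.69% over all genes and 19.1% and 11.3% over all listed genes. Spo11, which makes the double-strand breaks of meiotic recombination, stood at 7.01 and 7.01 in PGCs, against 3.30 and 3.35 in the epiblast (log2 change 3.69, SE 0.36, adjusted p = 1.74e-07). Mei4, a Spo11 cofactor, stood at 7.98 and 7.82 in PGCs, against 6.41 and 5.55 in the epiblast (log2 change 1.92, SE 0.28). The meiotic cohesin gene Stag3 stood at 9.28 and 9.12 in PGCs, against 7.57 and 7.49 in the epiblast (log2 change 1.67, SE 0.25). Falls were found for Meioc, which keeps cells in meiotic prophase (3.48 and 3.20 in PGCs, against 6.20 and 5.79 in the epiblast; log2 change -2.66, SE 0.26), and for the synaptonemal complex gene Sycp3 (6.80 and 6.67 in PGCs, against 8.89 and 9.19 in the epiblast; log2 change -2.30, SE 0.43). Hormad1, a protein of unsynapsed chromosome axes, fell as well (log2 change -2.12, SE 0.41, adjusted p = 0.000481). Stra8, the gene that retinoic acid switches on at meiotic entry, stood at 4.20 and 4.38 in PGCs, against 4.27 and 4.53 in the epiblast (log2 change -0.11, SE 0.37, adjusted p = 0.879), near the dim level in both groups. Dmc1, the meiotic recombinase, stood at 6.92 and 7.20 in PGCs, against 7.0 and 7.18 in the epiblast (log2 change -0.028, SE 0.22, adjusted p = 0.953), and its levels overlapped.

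Of 22 tested genes for germ cell surface, adhesion and migration, 6 rose and 5 fell. These were 27.3% and 22.7%, against 8.88% and 6.69% over all genes and 19.1% and 11.3% over all listed genes. Kit, the receptor for the stem cell factor that guides and sustains migrating PGCs, stood at 11.55 and 12.12 in PGCs, against 7.04 and 7.49 in the epiblast (log2 change 4.57, SE 0.26, adjusted p = 1.11e-10). Itgb3, a marker of PGCs, stood at 9.18 and 9.36 in PGCs, against 3.90 and 2.71 in the epiblast (log2 change 5.97, SE 0.46). Pecam1, an adhesion protein of PGCs and of endothelium, stood at 8.08 and 9.67 in PGCs, against 3.54 and 3.05 in the epiblast (log2 change 5.58, SE 0.97, adjusted p = 0.000197) and was higher in PGC array 2. Falls were found for the laminin receptor subunit Itga6 (7.86 and 6.98 in PGCs, against 10.70 and 10.82 in the epiblast; log2 change -3.34, SE 0.21) and for Gja1, which codes for the gap junction protein connexin 43 (8.16 and 7.17 in PGCs, against 10.97 and 11.04 in the epiblast; log2 change -3.34, SE 0.38). The integrin α3 gene Itga3 fell too (log2 change -2.36). Itgb1, the β1 integrin subunit, stood at 7.71 and 8.29 in PGCs, against 7.40 and 7.98 in the epiblast (log2 change 0.31, SE 0.24, adjusted p = 0.399).

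Epithelial and mesenchymal genes, which mark the loss of epithelial form, gave 5 rises and 6 falls among 24 tested genes and 3 rises without PGC array 1. Of the 5 that rose, 4 were higher in PGC array 1 than in array 2. Cdh1, which codes for E-cadherin, fell to 11.04 and 11.21 in PGCs, against 12.29 and 12.31 in the epiblast (log2 change -1.18, SE 0.14, adjusted p = 2.17e-06), a fall of 2.27-fold that left it bright. The tight junction genes Cldn6 (7.05 and 7.45 in PGCs, against 11.35 and 11.60 in the epiblast; log2 change -4.23, SE 0.19), Cldn4 (log2 change -2.71) and Ocln (-3.36) fell further, with the simple epithelial keratin gene Krt18 (-1.80). Epcam, an adhesion protein of epithelia and of germ cells, stood at 10.89 and 11.17 in PGCs, against 11.67 and 11.67 in the epiblast (log2 change -0.64, SE 0.20, adjusted p = 0.0214), under the 2-fold limit. Snai2, a repressor of epithelial genes, stood at 6.57 and 5.04 in PGCs, against 3.05 and 2.53 in the epiblast (log2 change 3.01, SE 0.59, adjusted p = 0.00057). The intermediate filament gene Vim stood at 11.70 and 10.83 in PGCs, against 9.99 and 9.96 in the epiblast (log2 change 1.29, SE 0.29), and its call was lost without PGC array 1 (log2 change 0.86, adjusted p = 0.0548).

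Genes of naive pluripotency, the state of the preimplantation epiblast, mostly rose. Of 16 tested, 11 rose and 0 fell by limma, 0 of them lower at an unadjusted p under 0.05, with a median log2 change of 3.66, and 11 to 12 rose when each array was left out in turn; Prdm14, Dppa3 and Tcl1 are also in the specification list. Klf2 stood at 11.11 and 10.33 in PGCs, against 4.71 and 4.42 in the epiblast (log2 change 6.16, SE 0.30, adjusted p = 1.48e-11). Nr5a2, an orphan nuclear receptor that drives Pou5f1, stood at 9.0 and 9.25 in PGCs, against 3.37 and 4.75 in the epiblast (log2 change 5.07, SE 0.30). Esrrb, an orphan nuclear receptor of the naive state, stood at 11.35 and 11.63 in PGCs, against 7.79 and 7.75 in the epiblast (log2 change 3.72, SE 0.53, adjusted p = 2.17e-05). The groups did not overlap in these 3 genes, and the epiblast was close to the dim level in the first 2. Tfcp2l1, a naive factor downstream of LIF, stood at 8.69 and 8.82 in PGCs, against 4.18 and 4.83 in the epiblast (log2 change 4.25, SE 0.28), and its call was lost where all probe sets were averaged (log2 change 0.92, adjusted p = 0.0923). Its other probe sets were dim in both groups. Rises were also found for Fbxo15, a target of Pou5f1 (log2 change 3.73), the homeobox gene Gbx2 (3.61), the junction protein gene Jam2 (3.31) and Klf5 (1.98).

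Other naive genes did not pass the threshold. Klf4 stood at 3.05 and 3.59 in PGCs, against 4.24 and 3.39 in the epiblast (log2 change -0.50, SE 0.71, adjusted p = 0.68), dim or close to it in all 4 arrays. Zfp42 (Rex1), a common naive state marker, stood at 9.83 and 9.03 in PGCs, against 8.69 and 8.52 in the epiblast (log2 change 0.82, SE 0.21, adjusted p = 0.00567), under the 2-fold limit in this fit and over it without PGC array 2 (log2 change 1.22, adjusted p = 0.000264). The T-box gene Tbx3 stood at 5.80 and 5.61 in PGCs, against 5.79 and 5.47 in the epiblast. Stat3, the signal transducer of LIF, stood at 7.71 and 7.33, against 7.70 and 7.49, with adjusted p of 0.838 and 0.8.

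Core pluripotency genes were kept in part. Of 17 tested, 3 rose and 5 fell. Pou5f1 (Oct4) stood at 12.61 and 12.98 in PGCs, against 12.61 and 12.94 in the epiblast (log2 change 0.018, SE 0.14, adjusted p = 0.953), the same range in both groups. Sox2 stood at 12.51 and 12.59 in PGCs, against 10.92 and 10.89 in the epiblast (log2 change 1.64, SE 0.20, adjusted p = 2.5e-06). Nanog stood at 10.62 and 11.05 in PGCs, against 8.94 and 9.25 in the epiblast (log2 change 1.74, SE 0.45, adjusted p = 0.0059), and its call was lost without PGC array 2 (log2 change 1.53, adjusted p = 0.0586) and without epiblast array 1 (log2 change 1.59, adjusted p = 0.0517). Gdf3, a TGFβ ligand of pluripotent cells, stood at 11.32 and 11.38 in PGCs, against 9.31 and 9.12 in the epiblast (log2 change 2.14, SE 0.16). Falls were found for Foxd3, a forkhead repressor of the epiblast (4.79 and 3.33 in PGCs, against 10.04 and 9.30 in the epiblast; log2 change -5.61, SE 0.45, adjusted p = 1.37e-08), and for Tdgf1 (Cripto), the Nodal co-receptor (8.06 and 6.10 in PGCs, against 12.28 and 11.80 in the epiblast; log2 change -4.96, SE 0.48). The zinc finger gene Zscan10 (log2 change -2.39), Dppa2 (-1.55) and Zfp281 (-1.24) fell as well. Utf1 (log2 change -0.75, SE 0.18) and Dppa5a (log2 change 0.17, SE 0.16) did not pass the threshold.

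Most primed epiblast genes, which mark the pluripotent state after implantation, fell. Of 21 tested, 12 fell and 1 rose (0 rises without PGC array 1, 3 rises without PGC array 2, 2 rises without epiblast array 1 and 0 rises without epiblast array 2), with a median log2 change of -2.25. The falls numbered 12 to 13 when each array was left out in turn. Pou3f1, a POU factor of the primed epiblast, stood at 6.44 and 4.77 in PGCs, against 12.01 and 12.01 in the epiblast (log2 change -6.41, SE 0.39, adjusted p = 2.81e-10). Fgf5, the growth factor gene that defines the state, stood at 6.03 and 6.27 in PGCs, against 10.11 and 10.19 in the epiblast (log2 change -4.0, SE 0.41, adjusted p = 3.39e-07). Zic5, a zinc finger factor, stood at 5.97 and 4.74 in PGCs, against 10.21 and 10.38 in the epiblast (log2 change -4.94, SE 0.33), and Sall2 fell too (log2 change -3.08). The 2 groups lay over 3 log2 units apart in Pou3f1, Fgf5 and Zic5. Lef1, a WNT effector, stood at 8.92 and 9.25 in PGCs, against 8.35 and 8.26 in the epiblast (log2 change 0.78, SE 0.68, adjusted p = 0.459). Nodal stood at 5.88 and 4.21 in PGCs, against 7.51 and 6.21 in the epiblast (log2 change -1.81, SE 1.02, adjusted p = 0.219), and in each group array 1 was the higher one.

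**Figure D2:**
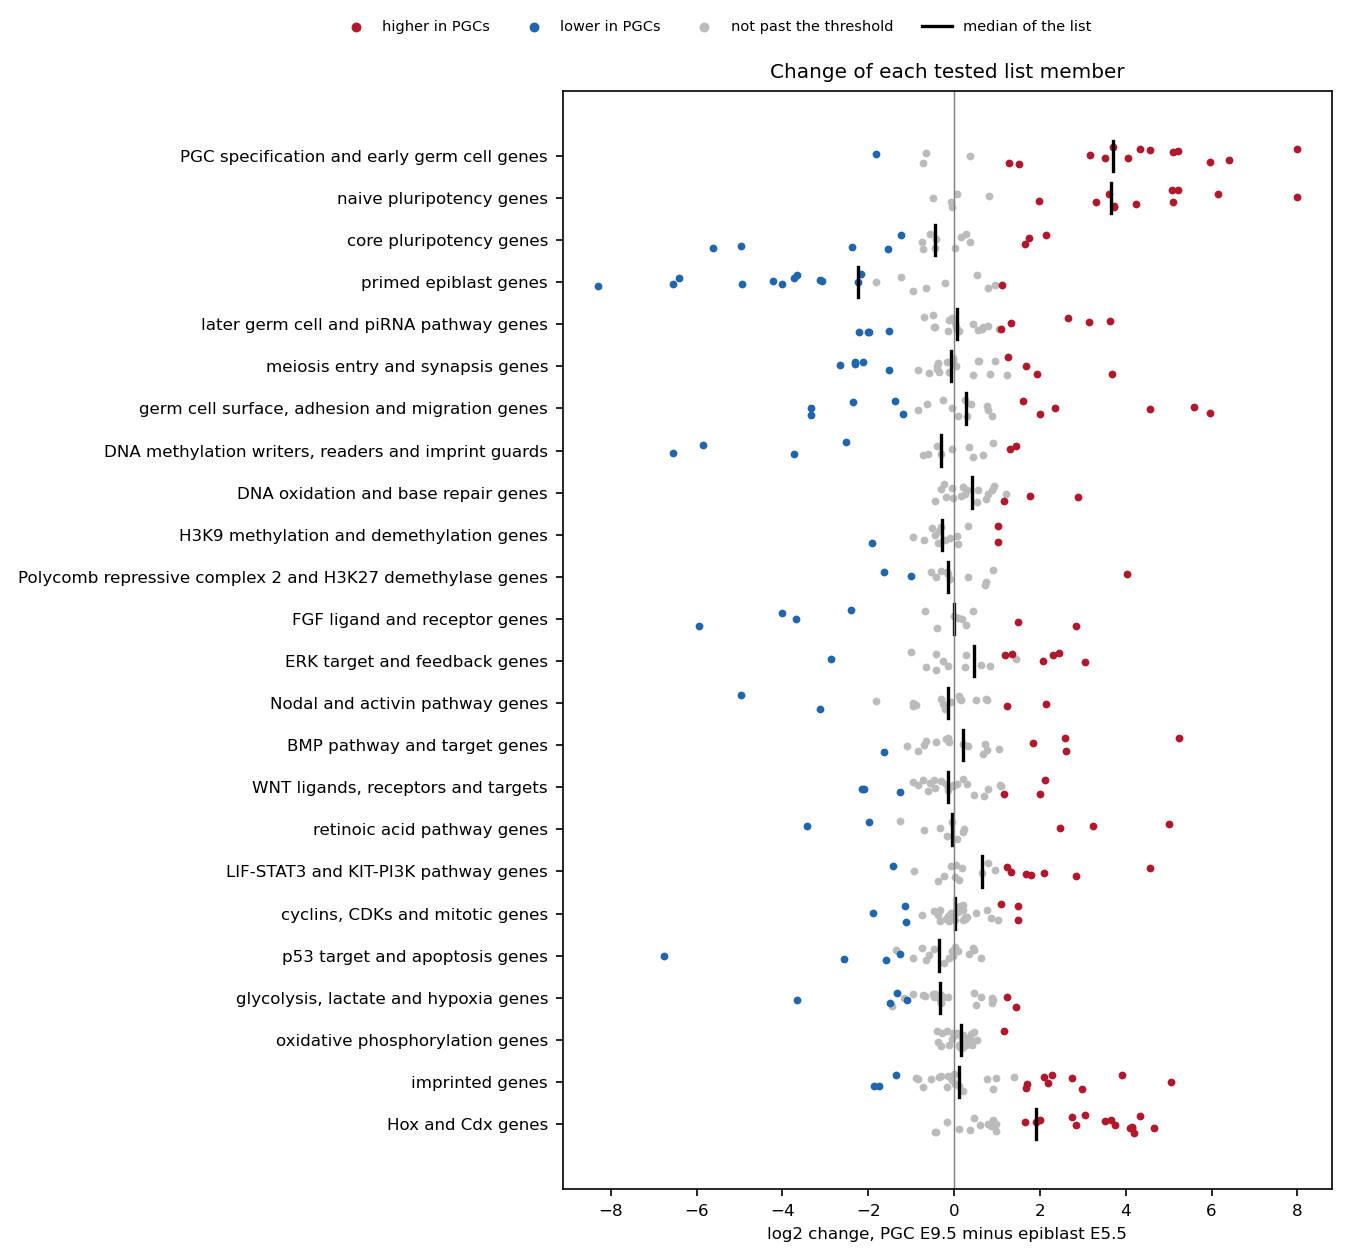
Log2 change (PGC E9.5 minus epiblast E5.5, horizontal axis) of every tested member of 24 gene lists (rows); red points were higher in PGCs, blue points lower, grey points did not pass the threshold, and black bars are list medians. The specification, naive and Hox lists had medians of 3.70, 3.66 and 1.91 and the primed list one of -2.25, while oxidative phosphorylation genes lay close to 0.

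The genes for de novo DNA methylation were much lower in PGCs. Dnmt3b, the main de novo methyltransferase of the epiblast, stood at 7.37 and 6.10 in PGCs, against 13.19 and 13.39 in the epiblast (log2 change -6.55, SE 0.61, adjusted p = 9.92e-08). Dnmt3a, the other de novo enzyme, stood at 8.04 and 8.0 in PGCs, against 11.65 and 11.83 in the epiblast (log2 change -3.72, SE 0.27, adjusted p = 4.35e-09). Dnmt3l, their catalytically inactive cofactor, stood at 4.19 and 4.16 in PGCs, against 10.42 and 9.63 in the epiblast (log2 change -5.85, SE 0.26). All 3 lay over 3 log2 units lower in both PGC arrays. Uhrf1, which brings the maintenance methyltransferase to replicated DNA, stood at 8.91 and 6.86 in PGCs, against 10.92 and 9.89 in the epiblast (log2 change -2.52, SE 0.69, adjusted p = 0.00952). Its 2 arrays differed by more than 1 log2 unit within each group, and its call was lost without PGC array 2 (log2 change -1.50, adjusted p = 0.186) and without epiblast array 1 (log2 change -2.01, adjusted p = 0.106). Dnmt1, the maintenance methyltransferase itself, stood at 11.99 and 11.97 in PGCs, against 11.33 and 11.30 in the epiblast (log2 change 0.67, SE 0.13, adjusted p = 0.000467), higher in PGCs but under the 2-fold limit. Uhrf2, a relative of Uhrf1, rose (10.51 and 10.99 in PGCs, against 9.17 and 9.72 in the epiblast; log2 change 1.30, SE 0.20), as did the methyl-CpG binding protein gene Mbd2 (log2 change 1.45, SE 0.25). Of the list's 15 tested genes, 2 rose and 4 fell. Trim28, the corepressor that guards imprints, stood at 12.68 and 12.53 in PGCs, against 12.76 and 12.57 in the epiblast (log2 change -0.059, SE 0.16, adjusted p = 0.845).

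Genes for DNA oxidation and base repair, which act in active demethylation, gave 3 rises and 0 falls among 20 tested genes by limma, 0 of them lower at an unadjusted p under 0.05. There were 1 fall without PGC array 1, 5 rises without epiblast array 1 and 1 rise without epiblast array 2. Tet1, a 5-methylcytosine dioxygenase, stood at 10.32 and 10.34 in PGCs, against 10.57 and 10.54 in the epiblast (log2 change -0.23, SE 0.36, adjusted p = 0.713). Tet2 stood at 7.68 and 8.03 in PGCs, against 7.47 and 7.93 in the epiblast (log2 change 0.15, SE 0.20, adjusted p = 0.646). Gadd45a, a stress response gene also linked to demethylation, stood at 10.09 and 10.23 in PGCs, against 7.32 and 7.24 in the epiblast (log2 change 2.88, SE 0.15, adjusted p = 3.92e-11). The repair scaffold gene Xrcc1 (log2 change 0.79, SE 0.29) and the replication clamp gene Pcna (log2 change -0.027, SE 0.14) did not pass the threshold.

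Histone methylation genes were tested as 2 lists. Of 16 tested H3K9 genes, 2 rose and 1 fell (0 rises and 2 falls without PGC array 2, 1 rise without epiblast array 1 and 2 falls where all probe sets were averaged). These were 12.5% and 6.2%, against 8.88% and 6.69% over all genes. Ehmt1 (GLP), which makes H3K9me2 with Ehmt2, stood at 8.69 and 8.87 in PGCs, against 10.53 and 10.85 in the epiblast (log2 change -1.91, SE 0.24, adjusted p = 4.2e-06). Ehmt2 (G9a) stood at 10.93 and 10.88 in PGCs, against 11.09 and 11.16 in the epiblast (log2 change -0.22, SE 0.18, adjusted p = 0.43), so that only Ehmt1 of the pair passed the test, and the difference between the 2 genes was not tested. Of 13 tested genes for the Polycomb repressive complex 2 and H3K27 demethylases, 1 rose and 2 fell (1 fall without PGC array 1, 1 fall without epiblast array 2 and 0 rises where all probe sets were averaged). Their shares were 7.7% and 15.4%, against the same 8.88% and 6.69%. Phf19, an accessory subunit that recruits the complex, stood at 9.63 and 9.87 in PGCs, against 5.67 and 5.77 in the epiblast (log2 change 4.03, SE 0.22, adjusted p = 1.01e-10), but the call was lost where all probe sets were averaged (log2 change 0.75, adjusted p = 0.342). The other Phf19 probe set, dim in both groups, went the other way (-2.54). Ezh2, the H3K27 methyltransferase, stood at 11.48 and 11.68 in PGCs, against 11.19 and 11.35 in the epiblast (log2 change 0.31, SE 0.17, adjusted p = 0.201).

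Of 21 tested genes of the MYC, MAX and PRC1.6 network, which represses germline genes in pluripotent cells, 0 rose by limma, 1 of them higher at an unadjusted p under 0.05, and 1 fell (2 falls without PGC array 1 and 2 falls without epiblast array 1). Myc stood at 6.87 and 6.23 in PGCs, against 9.39 and 9.47 in the epiblast (log2 change -2.88, SE 0.46, adjusted p = 7.58e-05). The PRC1.6 subunit genes Pcgf6 (10.54 and 10.60 in PGCs, against 10.78 and 10.78 in the epiblast), Mga (7.35 and 7.68, against 7.42 and 8.19), E2f6 (9.65 and 9.11, against 9.48 and 9.22) and L3mbtl2 (10.03 and 10.28, against 10.29 and 10.41) had adjusted p of 0.352, 0.643, 0.944 and 0.301. Of 15 tested genes for arginine methylation and protamine-type packaging, 0 rose by limma, 0 of them higher at an unadjusted p under 0.05, and 1 fell (0 falls without PGC array 2 and 0 falls where all probe sets were averaged).

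**Figure D3:**
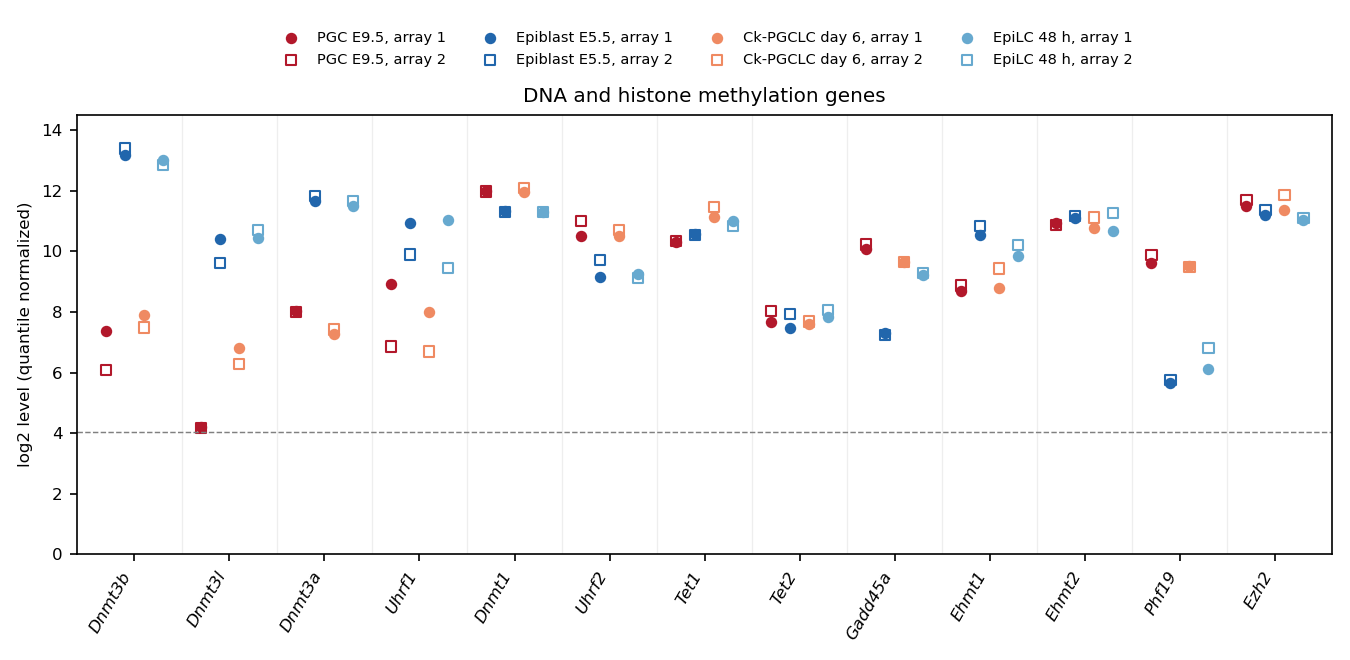
Normalized log2 level of 13 DNA and histone methylation genes on each array, with PGC E9.5 (red), epiblast E5.5 (blue), Ck-PGCLC day 6 (orange) and EpiLC 48 h (light blue) from left to right for each gene; filled circles are array 1, open squares array 2, and the dashed line is the dim level of 4.05. Dnmt3b, Dnmt3l and Dnmt3a lay lower in PGCs and in Ck-PGCLCs than in the epiblast and EpiLCs, whereas Tet1, Tet2 and Ehmt2 lay close together.

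Genes of FGF ligands fell and those of 2 receptors rose. Of 13 tested genes, the ligand genes Fgf4, Fgf5, Fgf8 and Fgf15 fell and the receptor genes Fgfr2 and Fgfr3 rose. Both Fgfr2 probe sets above the dim level rose (log2 change 1.50 for the chosen probe set and 1.44 for the other). A further Fgfr2 probe set, dim in both groups, went the other way (-0.92). The Fgfr2 call was lost where all probe sets were averaged (log2 change 0.67, adjusted p = 0.112). Fgf4, the FGF ligand of pluripotent cells, stood at 3.50 and 3.66 in PGCs, against 9.37 and 9.68 in the epiblast (log2 change -5.94, SE 0.24, adjusted p = 2.69e-12). Fgf15 stood at 5.65 and 5.37 in PGCs, against 9.0 and 9.39 in the epiblast (log2 change -3.68, SE 0.32). Fgf8 stood at 4.97 and 3.12 in PGCs, against 6.41 and 6.46 in the epiblast (log2 change -2.39, SE 0.46). Fgf4 was thus dim in PGCs. The receptor gene Fgfr3 stood at 6.91 and 6.01 in PGCs, against 3.63 and 3.61 in the epiblast (log2 change 2.84, SE 0.29, adjusted p = 3.15e-07). Fgfr1, the main FGF receptor of the epiblast, stood at 9.80 and 10.10 in PGCs, against 9.45 and 9.55 in the epiblast (log2 change 0.45, SE 0.18, adjusted p = 0.0837).

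ERK target and feedback genes gave 6 rises and 1 fall among 18 tested genes (2 falls without epiblast array 2 and 2 falls where all probe sets were averaged). Their shares were 33.3% and 5.6%, against 8.88% and 6.69% over all genes and 19.1% and 11.3% over all listed genes. The immediate early factor Egr1 stood at 7.35 and 7.40 in PGCs, against 5.15 and 4.98 in the epiblast (log2 change 2.31, SE 0.29, adjusted p = 5.13e-06). Ier3 stood at 9.61 and 9.44 in PGCs, against 6.83 and 7.31 in the epiblast (log2 change 2.45, SE 0.29). Phlda1, another ERK target, rose too (log2 change 2.07). The single fall was Myc, described above. Spry4, a feedback inhibitor, stood at 6.08 and 6.43 in PGCs, against 7.08 and 7.47 in the epiblast (log2 change -1.01, SE 0.44, adjusted p = 0.0986). Etv5, an FGF target, stood at 11.83 and 12.28 in PGCs, against 11.67 and 11.91 in the epiblast (log2 change 0.26, SE 0.19, adjusted p = 0.37). Neither passed the test, though Spry4 passed as lower in the fit on the 10 arrays of the earlier series (-1.01, adjusted p = 0.0225).

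Nodal pathway genes gave 2 rises and 2 falls among 18 tested (1 rise without PGC array 1 and 1 rise without epiblast array 2). That was 11.1% each way, against 8.88% and 6.69% over all genes. The falls were Tdgf1 and Fst, which codes for the activin inhibitor follistatin (6.13 and 5.20 in PGCs, against 8.62 and 8.97 in the epiblast; log2 change -3.14, SE 0.41, adjusted p = 7.63e-06). BMP pathway and target genes gave 4 rises and 1 fall among 19 tested. Msx2, a homeobox target of BMP, stood at 8.82 and 9.60 in PGCs, against 3.60 and 4.32 in the epiblast (log2 change 5.25, SE 0.42, adjusted p = 1.14e-08). Bmp7, a BMP ligand, stood at 8.12 and 8.37 in PGCs, against 5.82 and 5.46 in the epiblast (log2 change 2.60, SE 0.17). The inhibitory Smad6 stood at 7.94 and 7.80 in PGCs, against 6.18 and 5.87 in the epiblast (log2 change 1.84, SE 0.42). The classical targets Id1 (10.70 and 10.23 in PGCs, against 10.30 and 10.20 in the epiblast) and Id3 (11.47 and 11.39, against 11.49 and 11.64) had adjusted p of 0.471 and 0.844, and their levels overlapped or nearly so. The single fall, Bmp8b, a BMP ligand gene (log2 change -1.64, SE 0.49, adjusted p = 0.0153), was lost without PGC array 1 (adjusted p = 0.0569), PGC array 2 (0.0694), epiblast array 1 (0.0699) and epiblast array 2 (0.0614), which left 0 falls.

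WNT genes gave 3 rises and 3 falls among 27 tested, 11.1% each way, against 8.88% and 6.69% over all genes. Notum, a secreted WNT inhibitor, stood at 8.59 and 8.59 in PGCs, against 6.46 and 6.50 in the epiblast (log2 change 2.11, SE 0.12, adjusted p = 2.15e-10). Rspo3, a secreted WNT amplifier, rose as well (log2 change 2.0, SE 0.45). Tcf7l1, a repressor of naive genes, stood at 7.85 and 8.50 in PGCs, against 10.52 and 10.04 in the epiblast (log2 change -2.10, SE 0.21, adjusted p = 3.58e-07). Axin2, a direct target, stood at 8.52 and 7.36 in PGCs, against 7.12 and 6.61 in the epiblast (log2 change 1.08, SE 0.51, adjusted p = 0.134), higher in PGC array 1 than in array 2.

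Retinoic acid genes, which act in the trunk and later in germ cell differentiation, gave 3 rises and 2 falls among 13 tested. Aldh1a2, the enzyme that makes retinoic acid in the trunk mesoderm, stood at 9.89 and 8.89 in PGCs, against 4.34 and 4.43 in the epiblast (log2 change 5.0, SE 0.36, adjusted p = 3.51e-09). The binding protein gene Crabp1 stood at 10.93 and 9.82 in PGCs, against 7.41 and 6.89 in the epiblast (log2 change 3.23, SE 0.55, adjusted p = 0.000167). The receptor gene Rarb, itself a target, stood at 5.81 and 6.67 in PGCs, against 3.71 and 3.85 in the epiblast (log2 change 2.46, SE 0.35). Cyp26a1, the enzyme that degrades retinoic acid, stood at 5.53 and 5.03 in PGCs, against 8.93 and 8.46 in the epiblast (log2 change -3.42, SE 0.33). The rises lay in genes of synthesis, binding and response and the falls were Cyp26a1 and the receptor gene Rarg (log2 change -1.99). The summed level of the list was 6657 and 3672 in PGCs, against 3961 and 3178 in the epiblast, higher in PGC array 1 than in array 2, as were the mesenchyme and blood sums given below. Of the 3 genes that rose, 2 were higher in PGC array 1, and 3 rose without that array. The part of other cells in these rises was not tested.

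Of 19 tested LIF-STAT3 and KIT-PI3K genes, 7 rose and 1 fell (2 falls without PGC array 1, 0 falls without PGC array 2, 0 falls without epiblast array 1, 0 falls without epiblast array 2 and 2 rises and 0 falls where all probe sets were averaged). Besides Kit, Jak2, the kinase of cytokine receptors, stood at 7.72 and 7.43 in PGCs, against 4.78 and 4.68 in the epiblast (log2 change 2.84, SE 0.21, adjusted p = 5.05e-09). Akt1, the PI3K effector kinase, stood at 11.69 and 11.53 in PGCs, against 10.18 and 9.70 in the epiblast (log2 change 1.67, SE 0.14, adjusted p = 3.17e-08). Its call was lost where all probe sets were averaged (log2 change 0.68, adjusted p = 0.185), as were those of the growth kinase gene Mtor (log2 change 0.18, adjusted p = 0.783), the cytokine receptor gene Il6st (log2 change 0.56, adjusted p = 0.334) and the KIT ligand gene Kitl (log2 change 0.74, adjusted p = 0.0311). Another Akt1 probe set above the dim level rose too (1.74), and the rest were dim in both groups, as were the others of Il6st. Mtor and Kitl each had a probe set above the dim level with a change below 0 (-0.18 and -0.27). A further Kitl probe set rose (1.195). Socs3, the feedback target of STAT3, stood at 5.09 and 3.98 in PGCs, against 6.0 and 4.96 in the epiblast (log2 change -0.95, SE 0.44, adjusted p = 0.132), and without PGC array 1 it passed as lower (log2 change -1.50, adjusted p = 0.0398). Lifr, the LIF receptor, stood at 9.31 and 9.59 in PGCs, against 8.40 and 8.59 in the epiblast (log2 change 0.96, SE 0.19), under the 2-fold limit here and over it without PGC array 1 (log2 change 1.10, adjusted p = 0.00158) or epiblast array 2 (log2 change 1.05, adjusted p = 0.00298).

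Somatic genes were also higher in PGCs. In these samples fewer cells of a type and less RNA per cell cannot be told apart. Of 27 tested Hox and Cdx genes, 15 rose and 0 fell by limma, 0 of them lower at an unadjusted p under 0.05, with a median log2 change of 1.91, and 14 to 16 rose when each array was left out in turn. Hoxc8, a trunk gene, stood at 7.16 and 5.44 in PGCs, against 1.31 and 1.95 in the epiblast (log2 change 4.67, SE 0.50, adjusted p = 6.7e-07). Hoxb9 stood at 8.15 and 6.88 in PGCs, against 4.07 and 2.69 in the epiblast (log2 change 4.14, SE 0.51). Hoxb1, a hindbrain and posterior gene, stood at 7.14 and 6.06 in PGCs, against 2.71 and 3.18 in the epiblast (log2 change 3.65, SE 0.46). Every epiblast value of these genes was dim or close to it. The caudal gene Cdx1 stood at 5.65 and 5.46 in PGCs, against 3.51 and 3.78 in the epiblast (log2 change 1.91, SE 0.26). PGC array 1 exceeded array 2 in 14 of the 15 Hox and Cdx genes that rose, by a median of 1.72 log2 units, whereas it did so in 720 of all 1321 genes that rose, by a median of 0.07. Hoxa5 (6.72 and 6.81 in PGCs, against 6.51 and 6.79 in the epiblast) and Hoxa9 (5.42 and 5.45, against 5.40 and 5.80) did not pass the test (adjusted p = 0.775 and 0.767). Where all probe sets were averaged, both were higher in PGCs, Hoxa5 (log2 change 2.01, adjusted p = 0.000947) and Hoxa9 (log2 change 1.92, adjusted p = 2.63e-06).

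Of 23 tested primitive streak and mesoderm genes, 6 rose and 4 fell, with 4 rises without PGC array 1 and 2 falls without PGC array 2. Meox1, a somite gene, stood at 7.64 and 6.03 in PGCs, against 3.18 and 2.51 in the epiblast (log2 change 3.99, SE 0.79, adjusted p = 0.000694). Foxc2, a gene of paraxial mesoderm, stood at 7.77 and 6.14 in PGCs, against 3.05 and 3.35 in the epiblast (log2 change 3.75, SE 0.82). Of 14 tested neural genes, 4 rose and 1 fell (2 rises and 2 falls without PGC array 1, 0 falls without PGC array 2, 0 falls without epiblast array 1 and 0 falls without epiblast array 2). Pax6, a gene of neural tube and eye, stood at 7.18 and 6.38 in PGCs, against 4.50 and 4.12 in the epiblast (log2 change 2.47, SE 0.37, adjusted p = 3.26e-05). The mesoderm and neural genes that rose were all higher in PGC array 1 than in array 2, 6 of 6 and 4 of 4.

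Many markers of mesenchyme and some of embryonic blood and endothelium rose as these genes did, whereas most hindgut and leukocyte markers did not. Of 17 tested mesenchyme markers, 8 rose, among them Meox1, and 1 fell (6 rises and 2 falls without PGC array 1, and 0 falls without PGC array 2), and the summed linear level of the list was 3682 and 1510 in PGCs, against 655 and 598 in the epiblast. Col3a1, a fibrillar collagen gene, stood at 10.15 and 8.79 in PGCs, against 4.78 and 4.49 in the epiblast (log2 change 4.84, SE 0.46, adjusted p = 1.37e-07). Postn, a matrix gene of mesenchyme, stood at 8.01 and 7.32 in PGCs, against 2.29 and 2.35 in the epiblast (log2 change 5.34, SE 0.40). All 8 mesenchyme markers that rose were higher in PGC array 1. Of 13 tested embryonic blood and endothelial markers, 5 rose (4 without PGC array 1 and 6 without PGC array 2) and 0 fell by limma, 1 of them lower at an unadjusted p under 0.05, and the summed level was 15161 and 7165 in PGCs, against 412 and 442 in the epiblast. The third embryonic globin gene, Hbb-bh1, stood at 11.33 and 9.25 in PGCs, against 5.07 and 5.76 in the epiblast (log2 change 4.88, SE 0.60, adjusted p = 3.91e-06), while Cdh5, an endothelial cadherin, stood at 5.40 and 5.85 in PGCs, against 4.08 and 4.05 in the epiblast (log2 change 1.56, SE 0.72, adjusted p = 0.122). Pecam1 counts among these 5 and as a PGC gene. Of 14 tested hindgut endoderm markers 1 rose and 3 fell (0 rises without PGC array 2, 2 rises without epiblast array 1 and 0 rises and 5 falls without epiblast array 2), with a summed level of 3790 and 3902 in PGCs, against 10667 and 10017 in the epiblast. Of 7 tested leukocyte markers 1 rose and 1 fell (0 rises without PGC array 1, 2 rises without PGC array 2, 0 rises without epiblast array 2 and 0 falls where all probe sets were averaged), with a summed level of 407 and 248 in PGCs, against 447 and 396 in the epiblast. The 3 falls of the hindgut list were Cldn6, Cldn4 and Krt18, given above as epithelial genes, and its rise was Cdx2 (log2 change 2.84). No marker of these 4 lists was listed at 0 in a PGC array. Both the mesenchyme and the blood sums were more than 2-fold higher in PGC array 1 than in array 2. The globin genes Hbb-y and Hba-x were the brightest of the blood list and weighed most in its sum. Of its 5 genes that rose, 4 were higher in array 1, whereas Pecam1 and the uncalled Cdh5 were higher in array 2. The part of such cells in the Hox, mesoderm and neural rises was not tested.

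**Figure D4:**
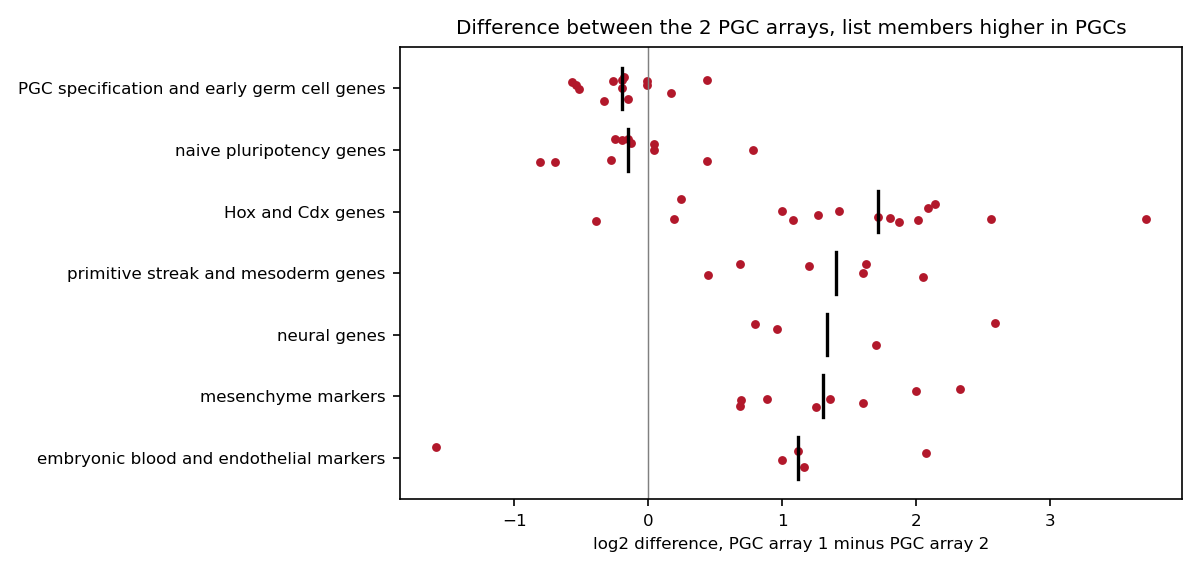
Difference between the 2 PGC arrays (array 1 minus array 2, log2 units, horizontal axis) for the members of 7 gene lists that were higher in PGCs than in the epiblast; points are genes and black bars list medians. Specification and naive genes lay around 0, with medians of -0.19 and -0.15, while the 5 somatic lists had medians from 1.12 to 1.72.

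On the epiblast side, of 21 tested visceral endoderm markers 4 fell in PGCs and 0 rose by limma, 1 of them higher at an unadjusted p under 0.05, but there were 1 rise and 2 falls without epiblast array 1 and 10 falls without epiblast array 2. The summed level was 2410 and 2259 in PGCs, against 5522 and 2541 in the epiblast. Apoa1, an apolipoprotein gene of visceral endoderm, stood at 5.56 and 5.63 in PGCs, against 9.81 and 7.27 in the epiblast (log2 change -2.95, SE 0.61, adjusted p = 0.000972). Ttr, transthyretin, stood at 7.04 and 7.10 in PGCs, against 9.81 and 6.96 in the epiblast (log2 change -1.32, SE 0.53, adjusted p = 0.075; without epiblast array 2 log2 change -2.75, adjusted p = 4.92e-06). Epiblast array 1 was the higher one in all 4 markers that fell, by a median of 2.08 log2 units, and their part in these falls was not tested. The apolipoprotein gene Apoa4 was listed at 0 in both PGC arrays, and its call was lost without epiblast array 1 (log2 change -2.93, adjusted p = 0.0827). Of 15 tested extraembryonic ectoderm markers, 2 rose and 2 fell, Eomes and Ascl2 (1 rise without PGC array 2 and 1 rise without epiblast array 2), with a summed level of 2593 and 2392 in PGCs, against 3445 and 3587 in the epiblast. Each share was 13.3%, against 8.88% higher and 6.69% lower over all genes. Gata2, also a gene of PGCs and blood, stood at 9.05 and 9.35 in PGCs, against 5.04 and 4.70 in the epiblast (log2 change 4.33, SE 0.37, adjusted p = 3.7e-08). The defining marker Elf5 stood at 4.56 and 4.40 in PGCs, against 4.41 and 4.03 in the epiblast (log2 change 0.26, SE 0.59, adjusted p = 0.813). These Elf5 values, also used in the summed level, are those of the chosen probe set. The other Elf5 probe set had means of 2.76 in PGCs and 8.73 in the epiblast (log2 change -5.97). Averaged over all probe sets, Elf5 was lower in PGCs (log2 change -2.85, adjusted p = 4.52e-06).

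Of 31 tested cyclins, CDKs and mitotic genes, 3 rose and 3 fell, 9.7% each way, near the shares of 8.88% and 6.69% over all genes. When each array was left out in turn, 2 to 4 rose and 2 to 3 fell, and 5 rose where all probe sets were averaged, with a median log2 change of 0.013. Mybl2, a driver of cell cycle genes, stood at 11.05 and 11.03 in PGCs, against 9.52 and 9.56 in the epiblast (log2 change 1.50, SE 0.22, adjusted p = 2.66e-05). Ccnd1 (cyclin D1) stood at 9.34 and 8.17 in PGCs, against 10.53 and 10.78 in the epiblast (log2 change -1.90, SE 0.30, adjusted p = 5.91e-05). Ccne1 (cyclin E1) stood at 10.64 and 10.46 in PGCs, against 11.67 and 11.73 in the epiblast (log2 change -1.15, SE 0.15). The replication helicase gene Mcm7 stood at 13.03 and 13.11 in PGCs, against 13.01 and 13.10 in the epiblast and the mitotic kinase gene Cdk1 at 11.93 and 11.44, against 12.14 and 11.87, with adjusted p of 0.955 and 0.423. Of 14 tested CDK inhibitor and pocket protein genes, 1 rose (3 rises without PGC array 2 and 2 rises without epiblast array 1) and 0 fell by limma, 1 of them lower at an unadjusted p under 0.05. The rise was Rb1, the retinoblastoma tumour suppressor gene, at 9.05 and 9.17 in PGCs, against 5.91 and 6.25 in the epiblast (log2 change 3.03, SE 0.21, adjusted p = 1.65e-09). Cdkn1b (p27) stood at 8.73 and 6.98 in PGCs, against 8.76 and 6.68 in the epiblast (log2 change 0.14, SE 0.79, adjusted p = 0.931), with arrays 1 well above arrays 2 in both groups.

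Of 20 tested p53 target and apoptosis genes, 0 rose by limma, 2 of them higher at an unadjusted p under 0.05, and 4 fell. Where all probe sets were averaged, 1 rose. Pmaip1 led, as described above. Ccng1 (cyclin G1), a p53 target, stood at 7.98 and 7.52 in PGCs, against 10.38 and 10.23 in the epiblast (log2 change -2.56, SE 0.19, adjusted p = 6.33e-09). Zmat3, another, stood at 8.76 and 8.70 in PGCs, against 10.37 and 10.24 in the epiblast (log2 change -1.58, SE 0.22). Bcl2l11 (Bim), a pro-apoptotic gene, stood at 7.74 and 7.74 in PGCs, against 8.85 and 9.16 in the epiblast (log2 change -1.27, SE 0.19). The p53 target Cdkn1a (p21) stood at 7.77 and 6.88 in PGCs, against 7.91 and 6.96 in the epiblast (log2 change -0.11, SE 0.51, adjusted p = 0.914). Mdm2 stood at 10.10 and 10.36 in PGCs, against 9.63 and 9.98 in the epiblast (log2 change 0.43, SE 0.21, adjusted p = 0.14). The list thus held 4 genes clearly lower in PGCs beside targets whose levels overlapped or did not pass the threshold.

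Of 25 tested genes of glycolysis, lactate and hypoxia, 2 rose and 4 fell (1 rise without epiblast array 2). One of the rises, the phosphofructokinase gene Pfkp (log2 change 1.22), was called with the chosen probe set, while its 2 other probe sets had changes below 0 and the average of all did not pass (log2 change -0.24, adjusted p = 0.562). The Pfkp call was also lost without epiblast array 1. Slc16a3, a lactate exporter, stood at 7.34 and 6.31 in PGCs, against 10.84 and 10.16 in the epiblast (log2 change -3.67, SE 0.49, adjusted p = 1.09e-05). The glycolytic enzyme gene Tpi1 stood at 11.92 and 11.88 in PGCs, against 12.93 and 13.07 in the epiblast (log2 change -1.10, SE 0.14). Hk2 (hexokinase 2) fell as well (log2 change -1.49). Ldha, lactate dehydrogenase A, stood at 12.69 and 12.74 in PGCs, against 13.36 and 13.50 in the epiblast (log2 change -0.71, SE 0.33, adjusted p = 0.118), and the glucose transporter genes Slc2a1 (log2 change -0.96, SE 0.21) and Slc2a3 (log2 change 0.89, SE 0.16) lay under the 2-fold limit, Slc2a3 over it without epiblast array 1 (log2 change 1.05, adjusted p = 0.000492). Of 29 tested oxidative phosphorylation genes 1 rose and 0 fell by limma, 2 of them lower at an unadjusted p under 0.05, with a median log2 change of 0.15. The call of Esrra, the nuclear receptor behind this rise, was lost without PGC array 1 (log2 change 0.72, adjusted p = 0.227), without epiblast array 2 (log2 change 0.48, adjusted p = 0.372) and where all probe sets were averaged (log2 change 0.033, adjusted p = 0.956). The subunit gene Cox4i1 stood at 13.17 and 13.18 in PGCs, against 12.88 and 12.69 in the epiblast (log2 change 0.39, SE 0.10, adjusted p = 0.00628). Of 19 tested cholesterol and fatty acid genes, 0 rose by limma, 0 of them higher at an unadjusted p under 0.05, and 1 fell, the desaturase gene Scd1 (log2 change -1.60, SE 0.24). Of 20 tested amino acid stress and unfolded protein genes, 1 rose, the asparagine synthetase gene Asns (log2 change 1.14, SE 0.14), and 1 fell, the serine synthesis gene Phgdh (log2 change -1.65, SE 0.18) (5 falls without PGC array 1, 2 falls without epiblast array 1 and 3 falls without epiblast array 2).

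Imprinted genes, which are read from 1 parental allele and whose marks PGCs erase, gave 9 rises and 3 falls among 29 tested, with 1 fall without PGC array 2. Plagl1, a zinc finger growth regulator, stood at 10.66 and 10.53 in PGCs, against 5.76 and 5.32 in the epiblast (log2 change 5.06, SE 0.37, adjusted p = 3.42e-09). Peg12 stood at 7.58 and 6.35 in PGCs, against 3.56 and 2.53 in the epiblast (log2 change 3.92, SE 0.46). The placental growth regulator gene Phlda2 stood at 12.39 and 12.61 in PGCs, against 9.54 and 9.49 in the epiblast (log2 change 2.98, SE 0.19). The amino acid transporter gene Slc38a4 stood at 10.38 and 10.76 in PGCs, against 7.72 and 7.94 in the epiblast (log2 change 2.74, SE 0.22). In these 4 genes both PGC arrays were above both epiblast arrays. The growth factor gene Igf2 stood at 11.02 and 9.74 in PGCs, against 8.32 and 8.09 in the epiblast (log2 change 2.18, SE 0.37, adjusted p = 0.000143), higher in PGC array 1. Ascl2 was lower (5.41 and 4.98 in PGCs, against 7.13 and 6.74 in the epiblast; log2 change -1.74, SE 0.33). Mest (11.72 and 10.96 in PGCs, against 10.94 and 11.30 in the epiblast) and Grb10 (10.83 and 10.07, against 10.33 and 10.56) overlapped between the groups (adjusted p = 0.695 and 0.997). The arrays do not tell the alleles apart.

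The same step was then compared with its counterpart in culture, Ck-PGCLCs at day 6 minus EpiLCs at 48 h, which shares no arrays with it. In culture 1369 genes were higher (9.2%) and 1365 lower (9.17%), 18.4% in all. Of the genes that rose in the embryo, 747 also rose in culture, 56.5% of the embryo's rises and 54.6% of those in culture, and 19 fell in culture. Of the genes that fell in the embryo, 636 also fell in culture, 63.9% of the embryo's falls and 46.6% of those in culture, and 13 rose in culture. A direct test of the difference between the 2 changes called 517 genes with a more positive change in the embryo (3.47%) and 336 with a more negative one (2.26%), 5.73% in all. These counts depended on how many arrays shared the estimate of spread, as given in the closing part. Of the genes described next, Klf2, Dppa3, Tdgf1, Pmaip1, Nr2f1, Dazl and Slc16a3 lost their call in the fit on the 10 arrays of the earlier series. In the fit on the 8 contrasted arrays alone, these 7 and Otx2, Hbb-y and Pcdh8 did. The cultured cells were male and the embryos of unknown sex, and the 2 steps differ in time as well as in source.

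Specification and primed genes moved alike in the 2 settings for the most part. Of the 13 specification genes that rose in the embryo, 12 rose in culture, and of the 12 primed genes that fell, 12 fell in culture. Prdm14 changed by 7.99 in the embryo and 7.98 in culture on the log2 scale, and the test of the difference did not call it (difference of the 2 changes 0.01, SE 0.36, adjusted p = 0.994). Dnmt3b changed by -6.55 and -5.24 (difference of the 2 changes -1.32, SE 0.86, adjusted p = 0.46) and Pou3f1 by -6.41 and -6.51 (difference of the 2 changes 0.11, SE 0.55, adjusted p = 0.958). Dppa3 rose more in the embryo, by 5.22 against 3.80 in culture (difference of the 2 changes 1.42, SE 0.36, adjusted p = 0.0191), a call lost without PGC array 2 (1.32, adjusted p = 0.0547), epiblast array 2 (1.26, adjusted p = 0.0928), Ck-PGCLC array 2 (1.45, adjusted p = 0.0508) and EpiLC array 2 (0.90, adjusted p = 0.0816). Klf2 also rose more in the embryo, by 6.16 against 3.99 in culture (difference of the 2 changes 2.16, SE 0.42, adjusted p = 0.00314; in the fit on 10 arrays 2.16, adjusted p = 0.113). Otx2 and Eomes fell further in the embryo. Otx2 stood at 3.83 and 4.26 in Ck-PGCLCs, against 8.89 and 8.99 in EpiLCs, a change of -4.89 against -8.31 in the embryo (difference of the 2 changes -3.41, SE 0.55, adjusted p = 0.00066), and Eomes at 4.95 and 5.35 in Ck-PGCLCs, against 7.43 and 6.38 in EpiLCs (difference of the 2 changes -5.14, SE 0.48, adjusted p = 2.74e-06). Tdgf1 changed by -4.96 in the embryo and -1.37 in culture (difference of the 2 changes -3.59, SE 0.68, adjusted p = 0.00249), and Pmaip1 by -6.77 and -2.82 (difference of the 2 changes -3.95, SE 0.52, adjusted p = 9.12e-05).

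The largest positive differences lay in the globin genes and in somatic genes. Hbb-y stood at 0.64 and 3.18 in Ck-PGCLCs, against 0.99 and 3.38 in EpiLCs (difference of the 2 changes 10.33, SE 1.14, adjusted p = 1.3e-05), and Aldh1a2 at 5.57 and 5.08 in Ck-PGCLCs, against 5.48 and 5.76 in EpiLCs (difference of the 2 changes 5.30, SE 0.51, adjusted p = 3.97e-06). Pcdh8, a protocadherin gene of paraxial mesoderm, stood at 7.69 and 5.72 in PGCs, against 1.72 and 3.62 in the epiblast and at 1.51 and 1.20 in Ck-PGCLCs, against 6.45 and 4.69 in EpiLCs (difference of the 2 changes 8.25, SE 1.0, adjusted p = 3.79e-05), and Nr2f1, an orphan nuclear receptor gene of the nervous system, at 8.08 and 6.27 in PGCs, against 0.62 and 2.95 in the epiblast and at 1.66 and 2.56 in Ck-PGCLCs, against 1.33 and 2.66 in EpiLCs (difference of the 2 changes 5.28, SE 1.15, adjusted p = 0.00786; without PGC array 1 4.37, adjusted p = 0.0526). Of 27 Hox and Cdx genes 9 had a more positive change in the embryo, and 3 rose in culture. Of 17 mesenchyme markers, 7 had a more positive change in the embryo. Both lists are among those in which PGC array 1 was higher than array 2. The parts of the embryonic samples' other cells in these differences were not tested.

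Large negative differences were found for Eomes, given above, and for genes that rose in culture and did not rise in the embryo. Lhx1, a LIM homeobox gene, stood at 5.79 and 5.53 in PGCs, against 5.78 and 5.91 in the epiblast and at 8.16 and 7.93 in Ck-PGCLCs, against 1.83 and 1.46 in EpiLCs (difference of the 2 changes -6.59, SE 0.97, adjusted p = 0.000282). The adhesion gene Tinagl1 stood at 6.26 and 5.80 in PGCs, against 8.23 and 7.78 in the epiblast and at 9.26 and 9.06 in Ck-PGCLCs, against 4.53 and 5.80 in EpiLCs (difference of the 2 changes -5.97, SE 0.49, adjusted p = 6.26e-07). Bmp4, the ligand that is also added to the Ck-PGCLC medium, stood at 7.34 and 7.15 in PGCs, against 8.23 and 7.95 in the epiblast and at 8.82 and 9.25 in Ck-PGCLCs, against 5.08 and 5.53 in EpiLCs (difference of the 2 changes -4.57, SE 0.38, adjusted p = 6.34e-07). Dazl fell in the embryo and stood at 8.79 and 8.62 in Ck-PGCLCs, against 7.84 and 7.29 in EpiLCs (difference of the 2 changes -3.36, SE 0.78, adjusted p = 0.0126), a call lost without PGC array 2 (-2.28, adjusted p = 0.0546) and epiblast array 1 (-3.05, adjusted p = 0.0509). The difference was positive for Ldha, which stood at 9.35 and 8.82 in Ck-PGCLCs, against 13.17 and 13.02 in EpiLCs (difference of the 2 changes 3.30, SE 0.46, adjusted p = 0.000162), and for Slc16a3, which stood at 4.23 and 3.14 in Ck-PGCLCs, against 10.71 and 10.25 in EpiLCs (difference of the 2 changes 3.13, SE 0.70, adjusted p = 0.0091). The call of Slc16a3 was lost without PGC array 1 (2.61, adjusted p = 0.0582), epiblast array 2 (2.79, adjusted p = 0.0506) and Ck-PGCLC array 2 (2.58, adjusted p = 0.0601). Egr1 rose in the embryo and was lower in Ck-PGCLCs than in EpiLCs (7.75 and 7.78 in Ck-PGCLCs, against 10.26 and 10.06 in EpiLCs; difference of the 2 changes 4.71, SE 0.41, adjusted p = 1.22e-06).

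**Figure D5:**
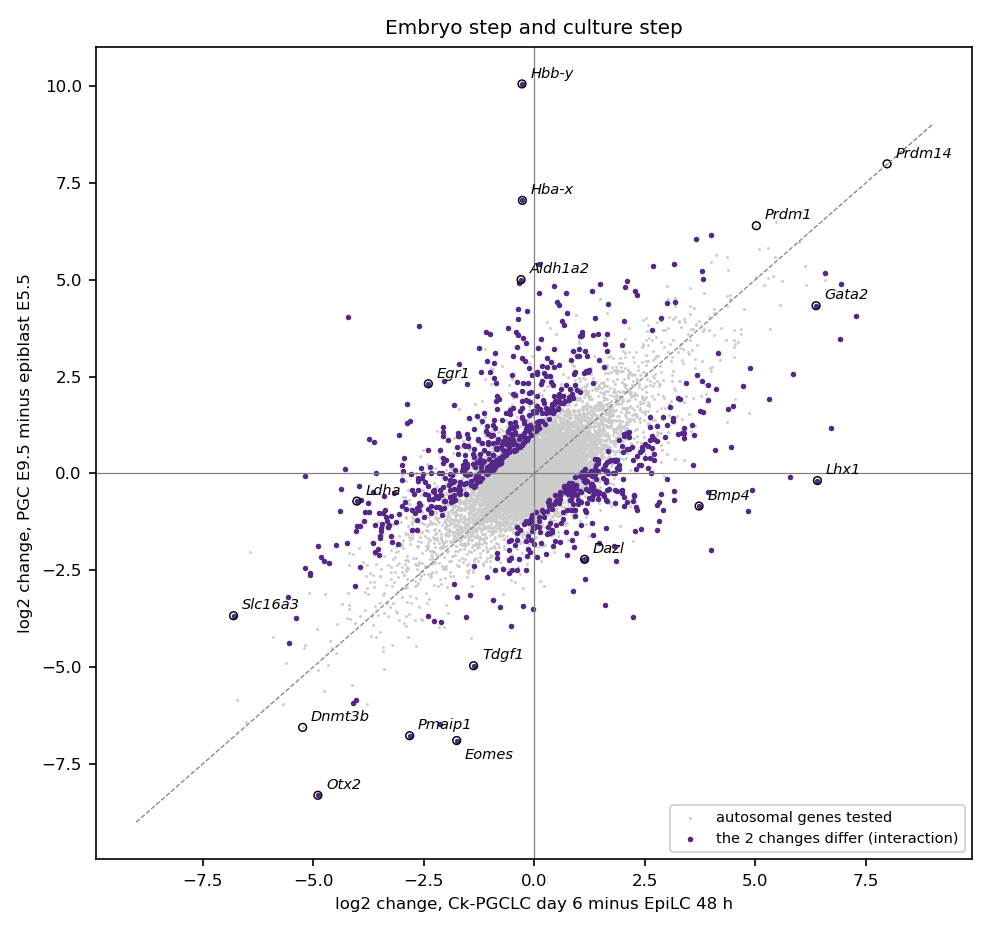
Log2 change in the embryo (PGC E9.5 minus epiblast E5.5, vertical axis) against log2 change in culture (Ck-PGCLC day 6 minus EpiLC 48 h, horizontal axis) for 14878 autosomal genes; violet points are the 853 genes whose 2 changes differed by the interaction test, and the dashed line marks equal changes. Prdm14 lay on the line at 7.99 and 7.98, Hbb-y at 10.05 in the embryo and -0.28 in culture, and Lhx1 at -0.18 and 6.40.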

How the data were processed

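The authors' deposited values are log2 expression values of 45101 probe sets on 32 arrays (16 groups of 2). The summarisation software is not given in the sources used here. Per the labels, global PCR amplified the cDNA, from roughly 20000 cells. Array medians ran from 4.62 to 4.79, a range of 0.17, so the arrays were quantile normalized. Probe sets were named through the platform annotation, and 34945 had 1 symbol. Each of 18193 genes was represented by its brightest probe set on average. Genes whose mean stayed under 4.05, the 40th percentile, in every group were dropped, which left 15497 genes, 14878 of them autosomal. One limma (version 3.58.1, R 4.3.3) linear model with a mean per group was fitted to all 32 arrays, with 16 residual degrees of freedom and Benjamini-Hochberg adjustment over all 15497 genes, and the code was tested on simulated data. Quantile normalization assumes like distributions in all groups, and the filter removes genes dim in every group.

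The members and gene lists were chosen with earlier results of these data known. Named genes were the 12 largest rises and 12 largest falls without overlap between arrays (clone and model symbols left out), up to 3 rises and 3 falls per list, a set of germ cell, pluripotency and methylation genes whatever their values, the largest differences between the steps and the changed list members there. Others were named after their values were seen. Alternatives changed the normalization, filter, probe set rule, variance moderation, arrays in the fit, threshold, a replicate block and each array in turn.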

Additional observations from a re-analysis of the deposited data

Results flagged for a closer look

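For 54 of the genes described, the change in the embryo differed from the change in culture by the interaction test of limma at an adjusted p under 0.05 and at least 2-fold. Values are the embryo change minus the culture change, in log2 units, from 2 arrays in each of the 4 groups. In 29 genes the change was more positive in the embryo. Among blood and somatic genes the difference was 10.33 for Hbb-y, 7.31 for Hba-x, 3.40 for Hbb-bh1, 8.25 for Pcdh8, 5.28 for Nr2f1, 4.36 for Meox1 and 2.65 for Postn. The Hox genes Hoxc8, Hoxb1 and Hoxb9 differed by 4.55, 4.07 and 3.39, and the retinoic acid genes Aldh1a2 and Crabp1 by 5.30 and 4.48. Pluripotency and germ cell genes followed, with 4.60 for Gbx2, 2.41 for Gdf3, 2.16 for Klf2, 2.57 for Tdrd5, 1.52 for Ifitm3, 1.42 for Dppa3 and 1.05 for Ddx25. The signalling, stress and growth genes Egr1, Gadd45a, Npnt, Rb1 and Notum differed by 4.71, 2.49, 2.41, 2.07 and 1.06. The imprinted genes Phlda2 and Grb10 differed by 2.68 and 2.35, and the metabolic genes Ldha, Slc16a3 and Asns by 3.30, 3.13 and 1.09.

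In 25 genes the change was more negative in the embryo. Transcription factors of the epiblast and early embryo gave -6.59 for Lhx1, -5.14 for Eomes, -3.41 for Otx2, -2.04 for Gata2, -1.02 for Zscan10, -1.90 for Dppa2 and -1.05 for Sall4. Signalling genes gave -4.57 for Bmp4, -3.59 for Tdgf1, -3.13 for Id3, -3.86 for Socs3, -1.15 for Stat3, -1.07 for Lifr, -1.93 for Igf2 and -3.17 for Cyp26a1. The germ cell genes Dazl, Ddx4 and Hormad1 differed by -3.36, -1.06 and -1.97, and the p53 targets Pmaip1 and Ccng1 by -3.95 and -1.98. The others were Tinagl1 at -5.97, Psmb8 at -4.33, Car4 at -1.84, Dnmt3l at -1.82 and Pfkp at -1.56.

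Of the 54, 18 lost their call when 1 of the 8 arrays was left out: Asns, Car4, Dazl, Ddx25, Ddx4, Dppa3, Gata2, Hbb-bh1, Hormad1, Ifitm3, Igf2, Lifr, Meox1, Nr2f1, Sall4, Slc16a3, Stat3 and Zscan10. In the fit on the 10 arrays of the earlier series 26 kept it, and in the fit on the 8 contrasted arrays 12 did. Those 12 were Aldh1a2, Bmp4, Egr1, Eomes, Gadd45a, Gbx2, Hba-x, Ldha, Lhx1, Npnt, Phlda2 and Tinagl1. The 10-array fit also kept Crabp1, Cyp26a1, Dppa2, Gata2, Gdf3, Grb10, Hbb-y, Hoxb1, Hoxc8, Otx2, Pcdh8, Postn, Psmb8 and Rb1. The test compares the size of the changes and not their sources.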

How the results depend on the processing

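With 2 arrays per group, calls depend on how many arrays share the estimate of spread. In the embryo step the count moved by over 1.5 times in 2 settings. The fit on the contrasted arrays alone gave 859 genes higher and 562 lower, and dropping the 2-fold limit gave 2195 higher and 1859 lower. For the difference between the embryo step and the culture step, the fit on the 10 arrays of the earlier series gave 105 more positive and 68 more negative genes, the fit on the contrasted arrays alone 32 and 22, and an adjusted p under 0.01 253 and 170. The first 2 of these fits use fewer arrays. Otherwise the cause was not tested. Leaving out 1 array at a time gave 1207 to 1352 genes higher and 868 to 1178 lower in the embryo step, and 304 to 670 more positive and 224 to 387 more negative genes for the difference. The 304 came without PGC array 1.

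Same-numbered arrays share only a number in the labels. The change between arrays 1 and 2 correlated at r = 0.4301 between PGCs and the epiblast and at 0.2433 to 0.5219 over 10 pairs of groups, a hint from the data and not from the design. With the replicate number as a block in the fit of 32 arrays, 1333 genes were higher and 1002 lower. In the fit of the 10 earlier arrays with the replicate block, the difference between the steps had 322 more positive genes. In the fit of 10 arrays with the block, Nodal (-1.81, adjusted p = 0.0332), Axin2 (1.08, adjusted p = 0.00778) and Spry4 (-1.01, adjusted p = 0.0135) passed as changed in the embryo step, and with the block in the fit of 32 arrays Spry4 did (-1.01, adjusted p = 0.0181).

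Averaging all probe sets of a gene turned the direction of 3 named genes: Pfkp (a phosphofructokinase gene, log2 change 1.22 with the chosen probe set and -0.24 as the mean), Elf5 (0.26 and -2.85) and Hoxa9 (-0.16 and 1.92). Of 308 named genes, 183 kept their call and direction in every setting. Of the changed genes described, Apoa1, Apoa4, Cbfa2t2, Ccnd1, Dazl, Esrra, Fgf8, Hk2, Igf2, Pcdh8, Pfkp, Phlda1, Rarg, Scd1, Uhrf1, Uhrf2 and Vim lost their call in the fit on the contrasted arrays alone, and Esrra and Uhrf1 also in the fit on the 10 earlier arrays.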
